A study of Arabidopsis thaliana with 4 samples.

Results

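Histone genes are described here in RNA-seq counts of *Arabidopsis thaliana* rosettes. The members are the 39 gene rows whose identifiers belong to a fixed list of core and linker histone genes, out of 36632 gene rows in the deposited counts. They were taken by gene identifier and not by any measured value. All 39 were found, of which 25 are replication-linked core histone genes (5 of H3.1, 8 of H4, 4 of H2A and 8 of H2B), 11 encode variants (3 of H3.3, 3 of H2A.W, 3 of H2A.Z and 2 of H2A.X) and 3 encode linker histone H1.

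Of the 4 libraries 2 were of *jmj26*, in which a T-DNA interrupts *JMJ26* (AT1G11950), and 2 of Col-0, the wild type. *JMJ26* encodes a protein of the Jumonji C family, to which known histone demethylases belong, and the study examined it for its part in DNA methylation outside CG sites. Whole rosettes were collected once plants had 9 true leaves, having spent 2 days at 4°C and then days of 16 h light at 21°C. The mutant is a single insertion line, and the labels do not say whether libraries of one genotype came from separate plants, so the p-values measure only the spread between these libraries, which may be technical. Counts of the *JMJ26* row were 0 and 2 in *jmj26* and 1 and 0 in Col-0, too few to check the genotype labels.

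The total count was 1998601 and 1497105 in *jmj26* libraries 1 and 2, against 1022041 and 740909 in Col-0 libraries 1 and 2, so the mutant libraries were the deeper ones. Of the gene counts, 92.3% and 92.4% in *jmj26* and 95.6% and 94.4% in Col-0 lay in rows that share bases with a gene of the opposite strand, although such rows are 24.6% of the gene rows. The library kit keeps the strand of the transcript, and the strand setting of the counting is not given in the sources used here. Only 7 of the 39 histone genes (17.9%) overlap a gene on the opposite strand. Among leaf markers, *CAB1*, a chlorophyll-binding protein gene, had 307 and 212 counts in *jmj26* and 35 and 39 in Col-0, and *RBCS1A*, a Rubisco small subunit gene, had 573 and 366 in *jmj26* and 88 and 132 in Col-0. The floral genes *AP1*, *AP3*, *AG* and *LFY* had 0 or 1 count in each library.

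Core histones H2A, H2B, H3 and H4 form the nucleosome around which DNA is wrapped, and H1 binds the DNA between nucleosomes. Replication-linked histones such as H3.1 are made mostly in S phase, when newly copied DNA needs new nucleosomes, whereas variants are placed outside replication. H3.3 replaces H3.1 in transcribed genes, H2A.Z marks gene starts and responsive genes, H2A.W marks heterochromatin, and H2A.X becomes phosphorylated near DNA breaks. Rosettes hold dividing cells in young leaves and the shoot apex beside many differentiated cells. In a whole rosette, fewer dividing cells and less histone RNA per cell cannot be told apart.

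Plant histone promoters are known for short shared elements, of which an octamer and a hexamer were searched on both strands from 250 bases before to 50 bases after the annotated start (TAIR10.1). The octamer CGCGGATC was present in 10 of 39 histone promoters (25.6%), against 40 of 27437 promoters of all protein-coding gene rows (0.146%), so that 25% of all promoters with the octamer belonged to histone members. It was found in 3 of 5 H3.1, 2 of 8 H4 and 2 of 4 H2A genes, in none of 8 H2B genes, in 2 of 11 variant genes and in 1 of 3 H1 genes. Windows of 30 bases around the octamer are shown for the replication-linked genes, and those of the variant and H1 genes are left out. The octamer is in capitals, and the windows are read 5′ to 3′ on the strand of the gene.
AT1G09200 (H3.1), chr1:2972406-2972435, minus strand: tcgtaccttcaCGCGGATCagtgttagaaa
AT1G09200 (H3.1), chr1:2972335-2972364, minus strand: ctgtgatttcaCGCGGATCgtgatagaaac
AT5G10400 (H3.1), chr5:3271059-3271088, minus strand: ttaacacaggaCGCGGATCgtaaagataca
AT5G65360 (H3.1), chr5:26120689-26120718, minus strand: tttagacgtgaCGCGGATCactaaaattaa
AT1G07660 (H4), chr1:2368696-2368725, plus strand: tacagatttcaCGCGGATCgcaatcttgga
AT5G59690 (H4), chr5:24051392-24051421, plus strand: cactgccatcaCGCGGATCactaatatgaa
*HTA10* (H2A), chr1:18926726-18926755, plus strand: attcactctgaCGCGGATCctgaatctcga
*HTA10* (H2A), chr1:18926790-18926819, plus strand: tgataaacagcGATCCGCGtagtttcttct
*HTA13* (H2A), chr3:7229311-7229340, plus strand: gcagtaacatcGATCCGCGtgattgtttat
The octamer of AT1G09200 ended 82 and 11 bases before the start, and those of *HTA10* ended 66 and 2 bases before it. The second octamer of *HTA10* and that of *HTA13*, 60 bases before the start, lay on the other strand, so their capitals are the reverse complement.

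The hexamer ACGTCA had another distribution over the classes. It was present in all 8 H2B promoters and in 12 of 39 histone promoters (30.8%), against 2522 of 27437 promoters in all (9.19%). The octamer and the hexamer matches did not overlap, 1 histone promoter held both, and 18 held neither. The 7 H2B windows that lie upstream of the start are shown, with the hexamer in capitals, since the letters after it recur between genes.
*HTB1*, chr1:2412895-2412924, plus strand: tgagaaatatacACGTCAatgatcctcgtg
AT2G28720, chr2:12326746-12326775, plus strand: ctaacgtgatccACGTCAccaacgatactg
AT2G37470, chr2:15736667-15736696, plus strand: tttatttaagccACGTCAtcgatcctcgcg
*HTB9*, chr3:16898152-16898181, minus strand: accaatattgacACGTCAtcgatcccgctt
*HTB11*, chr3:16914202-16914231, minus strand: gtaatatattccACGTCAtcaatcctcgtg
AT3G53650, chr3:19889189-19889218, plus strand: tggatggatgacACGTCAtcgatccgcaag
*HTB2*, chr5:7652892-7652921, minus strand: tcaaaagtaaccACGTCAgctatccacgcc
The pattern ACGTCANCNATCC, read off these windows after seeing them, was present in 5 of 8 H2B promoters and 2 of 31 other histone promoters, against 14 of 27437 promoters in all (0.0510%). In *HTB4* the hexamer lay past the start, with its first base at position 41 of the transcript. A match of letters is a description of the promoter and not a tested site.

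**Figure D1:**
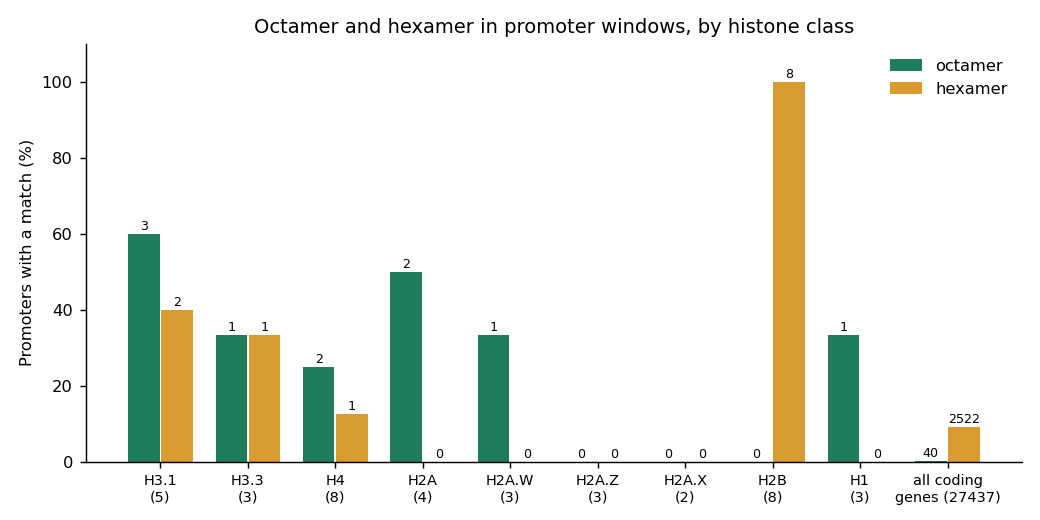
Percent of promoters (250 bases before to 50 after the start) with the octamer CGCGGATC or the hexamer ACGTCA, for each histone class and for all protein-coding gene rows. All 8 H2B promoters hold the hexamer and none the octamer, while 3 of 5 H3.1 promoters hold the octamer, against 0.146% of all promoters.

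Histone rows held few counts. Together they had 448 and 317 counts in *jmj26*, against 166 and 117 in Col-0. In 19 of 39 histone genes (48.7%) no library exceeded 3 counts, the floor taken here as detectable, against 65.8% of all gene rows. Per library that floor is 1.81 and 2.44 CPM of gene counts in *jmj26* and 3.56 and 5.17 CPM in Col-0 (CPM, counts divided by library size on the usual scale), and it covers counting error only. Of the members, 7 in each *jmj26* library and 18 and 17 in the Col-0 libraries were at 0 counts, and *RAT5* (H2A, AT5G54640) and *HIS1-3* (a drought-induced H1, AT2G18050) were at 0 in every library. A filter on low counts was passed by 7 members (17.9%), against 14.3% of all gene rows, and those 7 held 68.5% to 81.9% of the histone counts of a library. A row can pass through 1 genotype alone, so the 7 do not stand for all 39.

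None of the 7 passed an adjusted p of 0.05 in edgeR's quasi-likelihood test (Benjamini-Hochberg, over 5232 gene rows), where 3 rows (0.0573%) were called. Their adjusted p-values in that edgeR test lay between 0.284 and 0.970. At an unadjusted p under 0.05, 1 of the 7 was called (*HTB4*), and it was higher in *jmj26*. *HTB4* passed the filter through *jmj26* alone, since neither Col-0 library reached the level the filter asks for, so the filter favoured that direction and its p-value is given as a description. Among all tested rows 13.6% were called in that direction at that threshold, and among the tested rows without an opposite-strand overlap, which *HTB4* belongs to, 37.9%, and 26.3% of these rows without an overlap passed the filter through *jmj26* alone. DESeq2's Wald test called 0 of the 7 at an adjusted p of 0.05 and 0 at an unadjusted p of 0.05. The log2 fold change of *jmj26* over Col-0 was positive for 5 members and negative for 2, with a median of 0.36. The median was 0.013 over all tested rows, 0.60 over the 1362 rows without an opposite-strand overlap and -0.031 over the 3870 rows with one. For rows without an overlap the median moved with the filter, to -0.0030 with at least 10 counts in every library and 1.30 with no filter. The 3 tested members without an overlap (*HTB2*, AT2G28720 and *HTB4*) had log2 fold changes of 0.36, 0.55 and 1.65, and the 4 with one (*HTA13*, *HTA12*, *GAMMA-H2AX* and *HTB9*) had 0.37, -0.061, 0.21 and -0.37.

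**Figure D2:**
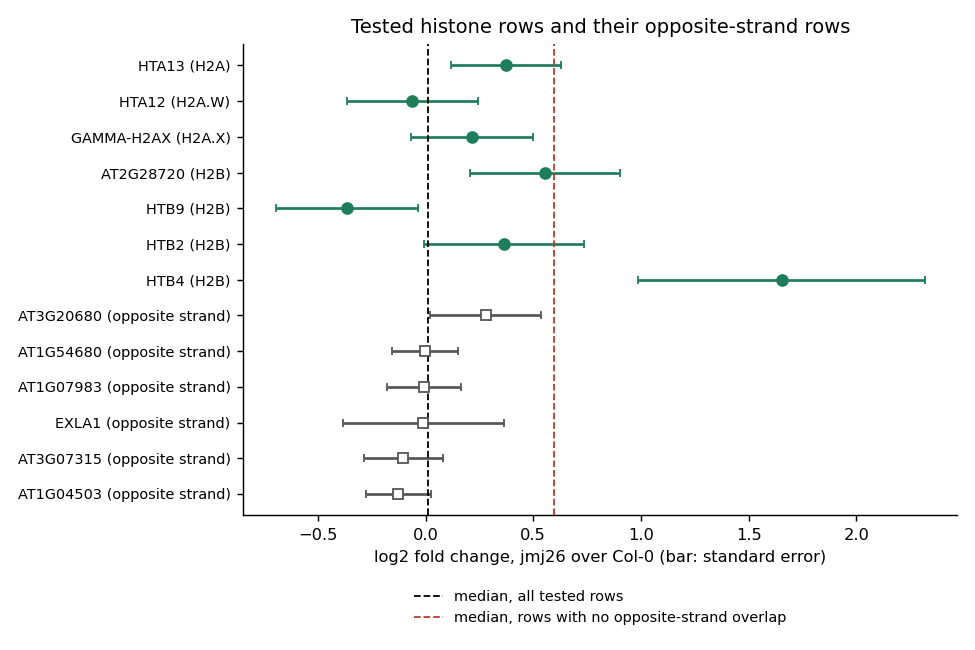
Log2 fold change of *jmj26* over Col-0 (bars are standard errors) for the 7 tested histone genes (filled circles) and for 6 tested rows of genes that overlap a histone gene on the opposite strand (open squares), with dashed lines at the medians of all tested rows and of tested rows without such an overlap. The histone genes range from -0.37 (*HTB9*) to 1.65 (*HTB4*), and the dashed lines are at 0.013 and 0.60.

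H3 forms the nucleosome core with H4 and carries many of the lysines at which histone marks are placed, H3K9 among them. Its genes had few counts here. AT5G10390, the H3.1 gene with the most counts, had 5 and 11 counts in *jmj26* and 4 and 0 in Col-0. The genotypes overlapped, and its count ratio at equal depth was 1.97 with an exact 95% interval of 0.635 to 8.09 that covers counting error only. The 5 H3.1 genes together had 11 and 23 counts in *jmj26*, against 7 and 1 in Col-0, or 6.85 and 19.3 against 8.65 and 1.76 CPM (here and below scaled by the TMM-adjusted library size). The *jmj26* and Col-0 ranges overlapped, with p = 0.667 in an exact two-sided permutation test over the 4 libraries, whose smallest possible p is 0.333. The 3 H3.3 genes, which in plants are transcribed through the whole cell cycle, had 3 and 3 counts in *jmj26* and 0 and 1 in Col-0, and they were at or under the floor in both genotypes.

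H4, a histone whose sequence is nearly the same in plants and animals, had fewer counts in both Col-0 libraries than in the *jmj26* libraries. The 8 genes summed to 39 and 29 counts in *jmj26*, against 2 and 8 in Col-0. In CPM these were 24.3 and 24.4 in *jmj26* and 2.47 and 14.1 in Col-0, a 2.93-fold ratio of the means, with p = 0.333 (exact permutation test, the smallest it can give). The log2 ratio of the H4 means was 1.55, but 0.79 without Col-0 library 1 and 3.3 without Col-0 library 2. The ratio of H4 counts at equal depth was 3.35, with an exact 95% interval of 1.71 to 7.29 for counting error only. Most of these counts came from a pair of genes. *HIS4* (AT2G28740, chr2:12329345-12330059, minus strand) had 15 and 11 counts in *jmj26* and 0 and 2 in Col-0, and AT3G53730 (chr3:19912385-19913515, minus strand) had 12 and 12 in *jmj26* and 1 and 2 in Col-0.

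Both genes had both *jmj26* libraries above both Col-0 libraries in CPM. Their count ratios at equal depth were 6.40 (exact 95% interval 1.60 to 55.6) and 3.94 (1.20 to 20.4). Neither passed the filter on low counts. Without the filter the log2 fold change of *HIS4* was 2.47 (adjusted p = 0.0810, edgeR quasi-likelihood test over 22317 rows) and that of AT3G53730 was 1.82 (adjusted p = 0.249), while the median of all rows in that fit was 0.59 and of rows without an opposite-strand overlap 1.30. The other 6 H4 genes had between 1 and 9 counts over all 4 libraries. Near-identical copies share reads here. In those 6 genes 6.94% to 28.5% of 50-base windows of the exons occur elsewhere in the genome, against 0% in *HIS4* and AT3G53730, and the counting divides reads with several hits, so the values of the 6 are uncertain gene by gene.

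H2A held the single histone gene with the most counts. *HTA13* (AT3G20670, chr3:7229390-7230146, plus strand), a replication-linked H2A gene, had 110 and 76 counts in *jmj26*, against 33 and 36 in Col-0. In CPM these were 68.5 and 63.9 in *jmj26* and 40.8 and 63.5 in Col-0. Col-0 library 2 lay next to the mutant libraries and Col-0 library 1 below them. The means were 66.2 ± 3.21 CPM in *jmj26* and 52.1 ± 16.1 CPM in Col-0 (SD, n = 2 each), and the log2 fold change was 0.37 ± 0.26 (SE; adjusted p = 0.606, edgeR quasi-likelihood test). Without Col-0 library 1 it was -0.066. The other 3 H2A genes, *RAT5*, *HTA2* and *HTA10*, had at most 4 counts in a library.

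*HTA13* had the highest level of all members per length, with 99.7 CPM per kb of exon in *jmj26* and 78.5 in Col-0. *HTB9* followed with 36.9 in *jmj26* and 47.1 in Col-0, *GAMMA-H2AX* with 30.5 and 26, *HTB2* with 30.4 and 24.2, AT2G28720 with 21.3 and 13.9, and *HTA12* with 13.7 and 14.1, all in CPM per kb and *jmj26* first. The range of *HTA13* over the 4 libraries, from 61.4 to 103 CPM per kb, lay above the next member. Beneath it the libraries of neighbouring genes overlapped. Of these genes *HTA13*, *HTB9*, *GAMMA-H2AX* and *HTA12* overlap a gene on the opposite strand. Which strand their counts came from was not tested, so the order is one of rows.

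Among the H2A variants, counts were concentrated in single genes of each class. *HTA12* (AT5G02560, chr5:575225-577216, plus strand), an H2A.W gene, had 34 and 24 counts in *jmj26* and 20 and 10 in Col-0. It averaged 20.7 ± 0.688 CPM in *jmj26* and 21.2 ± 5.0 CPM in Col-0 (SD, n = 2 each), and the libraries of the genotypes overlapped. Its log2 fold change was -0.061 ± 0.30 (SE; adjusted p = 0.970, edgeR quasi-likelihood test), and 0.10 without Col-0 library 1. The other H2A.W genes, *HTA6* and *HTA7*, had at most 2 counts in a library.

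*GAMMA-H2AX* (AT1G54690, chr1:20414316-20415287, minus strand), an H2A.X gene, had 38 and 30 counts in *jmj26*, against 18 and 11 in Col-0. It averaged 24.4 ± 1.12 CPM in *jmj26* and 20.8 ± 2.00 CPM in Col-0 (SD, n = 2 each), and both mutant libraries lay above both Col-0 libraries. The log2 fold change was 0.21 ± 0.28 (SE; adjusted p = 0.861, edgeR quasi-likelihood test). *HTA9* (AT1G52740), the H2A.Z gene with the most counts, had 8 and 8 counts in *jmj26* and 3 and 4 in Col-0. *HTA8* and *HTA11*, the other H2A.Z genes, had at most 2 counts in a library.

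H2B, which pairs with H2A in the nucleosome, held 41.7% and 33.4% of the histone counts in *jmj26* and 45.8% and 35.9% in Col-0. Its 8 genes summed to 116.4 and 89.2 CPM in *jmj26*, against 93.9 and 74.1 CPM in Col-0, and the genotypes overlapped (p = 0.667, exact permutation test). *HTB4* (AT5G59910, chr5:24126877-24128162, plus strand) had 21 and 12 counts in *jmj26* and 1 and 4 in Col-0. Both *jmj26* libraries lay above both Col-0 libraries, at 11.6 ± 2.1 CPM in *jmj26* and 4.15 ± 4.12 CPM in Col-0 (SD, n = 2 each). Its log2 fold change was 1.65 ± 0.67 (SE), with an unadjusted p of 0.0404 and an adjusted p of 0.284 in edgeR's quasi-likelihood test. It was 0.59 without Col-0 library 1 and 3.05 without Col-0 library 2.

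*HTB2* (AT5G22880, chr5:7651868-7652714, minus strand) had 53 and 22 counts in *jmj26* and 16 and 12 in Col-0. The mutant libraries were far apart, at 25.7 ± 10.2 CPM, around the Col-0 value of 20.5 ± 0.992 CPM (SD, n = 2 each). Its log2 fold change was 0.36 ± 0.37 (SE; adjusted p = 0.759, edgeR quasi-likelihood test), and -0.17 without *jmj26* library 1. AT2G28720 (chr2:12326808-12327808, plus strand) had 32 and 27 counts in *jmj26*, against 14 and 6 in Col-0. Both mutant libraries lay above both Col-0 libraries in CPM (21.3 ± 1.98 in *jmj26* and 13.9 ± 4.75 in Col-0, SD, n = 2 each), and the log2 fold change was 0.55 ± 0.35 (SE; adjusted p = 0.556, edgeR quasi-likelihood test).

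*HTB9* (AT3G45980, chr3:16897287-16898013, minus strand) had 51 and 26 counts in *jmj26* and 34 and 15 in Col-0. Its mean was lower in the mutant, at 26.8 ± 6.98 CPM in *jmj26* and 34.2 ± 11 CPM in Col-0 (SD, n = 2 each), and the libraries overlapped (log2 fold change -0.37 ± 0.33, SE, adjusted p = 0.720, edgeR quasi-likelihood test). *HTB11* (AT3G46030) had 11 and 8 counts in *jmj26* and 3 and 1 in Col-0, with a count ratio at equal depth of 2.34 and an exact 95% interval of 0.777 to 9.45. AT2G37470 had 12 and 7 counts in *jmj26* and 7 and 3 in Col-0, with a count ratio of 0.935 (0.414 to 2.25). *HTB1* and AT3G53650 had at most 4 counts in a library. All 8 H2B promoters held the hexamer shown above, and these genes ranged over the 4 libraries from 0 counts to 53. Whether the hexamer goes with a level or a direction was not tested.

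**Figure D3:**
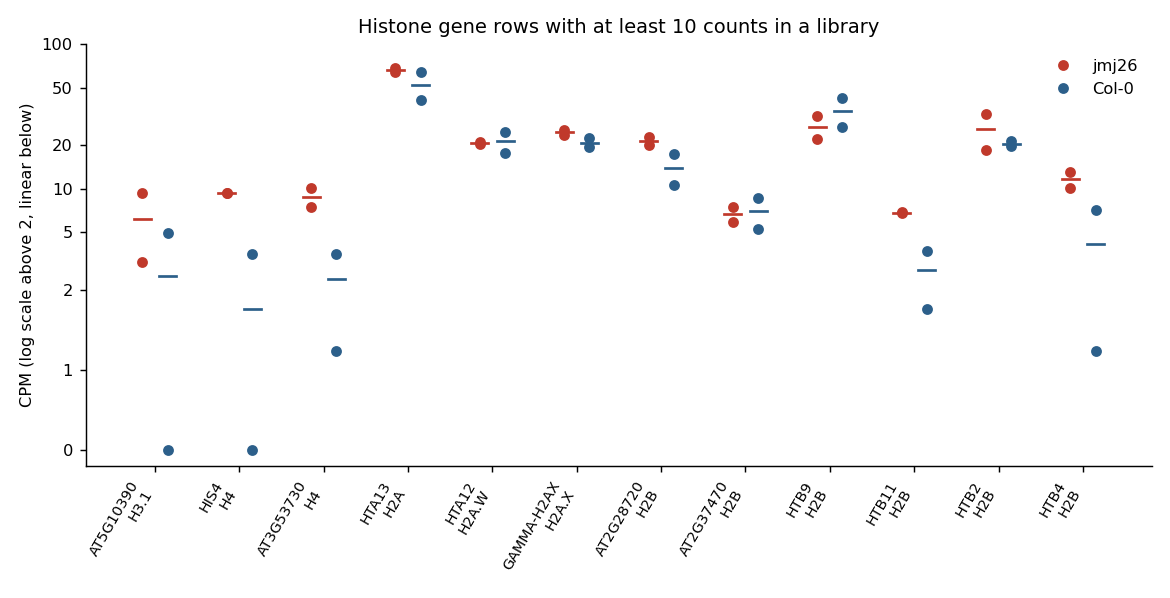
CPM (log axis above 2, linear below, scaled by TMM-adjusted library size) of the 12 histone genes with 10 or more counts in a library, with 1 point per library and a line at the mean, *jmj26* left of Col-0. *HTA13* stands highest at 63.9 and 68.5 CPM in *jmj26* and 40.8 and 63.5 CPM in Col-0. Both *jmj26* points lie above both Col-0 points for *HIS4*, AT3G53730, *HTA13*, *GAMMA-H2AX*, AT2G28720, *HTB4* and *HTB11*. The same held for 31.8% of the 22317 gene rows with a count, a set without the minimum of 10. AT5G10390, *HIS4*, AT3G53730, *HTB4*, *HTB11* and AT2G37470 reached 10 counts in *jmj26* libraries alone. The choice of genes thus favoured higher values in *jmj26*, and their number is not comparable with that share.

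Linker H1, which compacts the fiber between nucleosomes, was the sparsest class beside H3.3. Its 3 genes had 7 and 8 counts in *jmj26* and 2 and 1 in Col-0. AT1G06760 had 5 and 4 counts in *jmj26* and 1 and 0 in Col-0, and AT2G30620 had 2 and 4 in *jmj26* and 1 and 1 in Col-0. The summed ratio at equal depth was 2.46 with an exact 95% interval of 0.696 to 13.3, so no difference in H1 was detectable at these counts. Which strand the H1 counts came from was not tested.

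The 27 members under 10 counts in every library reached at most 8 counts. Their mean CPM was higher in *jmj26* for 20 and lower for 5, with 2 at 0 throughout. Over all 39 it was higher for 29 and lower for 8, and among the 22317 gene rows with a count it was higher in *jmj26* for 70% and lower for 30%. Of the 37 members with at least 1 count, 14 (37.8%) had both *jmj26* libraries above both Col-0 libraries and 1 had both below. In the same comparison 31.8% of those 22317 gene rows had both *jmj26* libraries above and 7.62% both below. Among the 7 tested members 4 had both above, against 26.8% of all tested rows (51.3% of those without an opposite-strand overlap and 18.1% of those with one), and 0 had both below, against 18.3%. Over all gene rows 45.7% and 50.3% were at 0 in *jmj26* and 62.7% and 64.2% in the shallower Col-0 libraries.

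The summed classes gave the comparison of replication-linked with variant histones. The 25 replication-linked genes summed to 217.8 and 201.0 CPM in *jmj26*, against 147.0 and 153.5 CPM in Col-0, a 1.39-fold ratio of the means. The 11 variant genes summed to 56.6 and 58.9 CPM in *jmj26*, against 55.6 and 51.2 CPM in Col-0, a 1.08-fold ratio. For both, the *jmj26* libraries lay above the Col-0 libraries, and p was 0.333 in an exact two-sided permutation test, the smallest that 2 against 2 libraries allow. The ratio of replication-linked to variant counts was 3.85 and 3.41 in *jmj26* and 2.64 and 3.0 in Col-0, with means of 3.63 ± 0.305 in *jmj26* and 2.82 ± 0.251 in Col-0 (SD, n = 2 each). On the log2 scale the ratio differed by 0.36 (*jmj26* minus Col-0, p = 0.333, exact permutation test). All 39 genes together summed to 272.7 ± 8.62 CPM in *jmj26* and 205.7 ± 0.936 CPM in Col-0 (SD, n = 2 each), a 1.33-fold ratio.

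**Figure D4:**
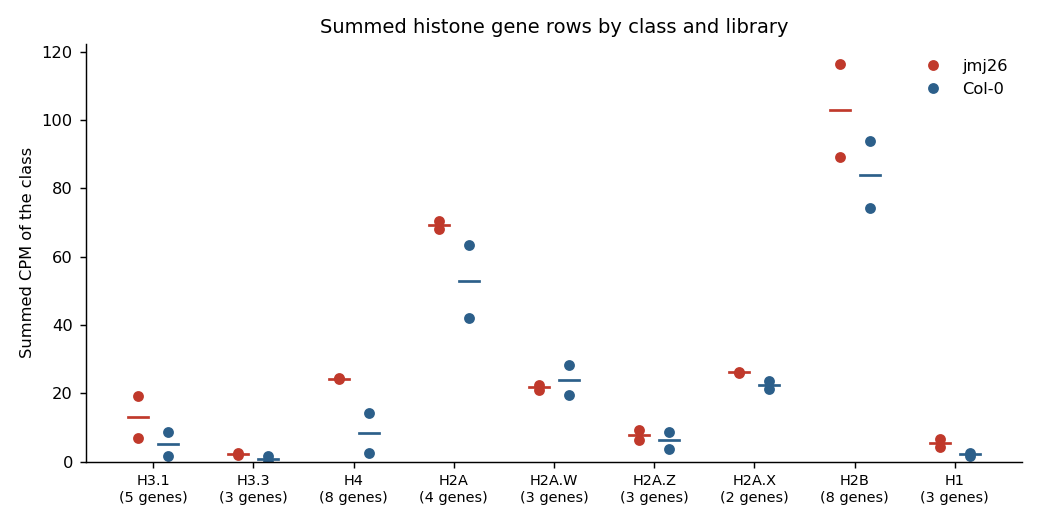
Summed CPM of each histone class (linear axis), with 1 point per library and a line at the mean, *jmj26* left of Col-0. H4 is at 24.3 and 24.4 CPM in *jmj26* and 2.47 and 14.1 CPM in Col-0, and H2B has the highest sums. The genotypes overlap in H3.1, H2A.W, H2A.Z and H2B.

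The direction of the sums over all, replication-linked and variant genes depended on what the counts were scaled to. The summed log2 ratio of all histone genes, *jmj26* over Col-0, was 0.41 relative to TMM-adjusted gene counts and -0.23 relative to the total of rows without an opposite-strand overlap. On that scale replication-linked sums were at -0.16 and variant sums at -0.53. By class, H4 was at 1.03, H3.3 at 0.84, H1 at 0.72 and H3.1 at 0.59. The sums of H2A, H2A.W, H2A.Z, H2A.X and H2B were negative. In the ratio of replication-linked to variant counts the scaling cancels, so its log2 difference of 0.36 is the same on any scale. The groups differed in overlap. Rows without one held 189 and 137 of 350 and 239 replication-linked counts in *jmj26* and 52 and 36 of 119 and 87 in Col-0. Of the variant counts they held 11 and 8 of 91 and 70 in *jmj26* and 4 and 4 of 45 and 29 in Col-0. The part of this in the ratio was not tested. The 32 histone genes without an overlap summed to 124.5 and 122.0 CPM in *jmj26*, against 69.2 and 70.6 CPM in Col-0, a log2 ratio of 0.82. When tested rows were limited to those without an overlap, their median log2 fold change was 0.050 and *HTB2* and AT2G28720, the histone genes left in the test, had 0.061 and 0.26 (adjusted p = 0.947 and 0.747, edgeR quasi-likelihood test). The part of the depth difference and of the leaf markers above in the histone sums was not tested.

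Where a histone gene had an annotated neighbour on the opposite strand, the neighbour's row often held more counts than the histone row. The coding exons of a histone gene lie under 3 long noncoding RNA (lncRNA) genes, and 60 bases of each shared coding stretch are shown on the strand of the histone gene to identify the segment.
*GAMMA-H2AX* under AT1G07983, chr1:20415097-20415156, minus strand: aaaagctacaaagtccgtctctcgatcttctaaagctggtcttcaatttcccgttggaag
*HTB9* under AT3G07315, chr3:16897823-16897882, minus strand: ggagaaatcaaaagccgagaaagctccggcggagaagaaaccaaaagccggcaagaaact
AT1G06760 under AT1G04503, chr1:2076813-2076872, minus strand: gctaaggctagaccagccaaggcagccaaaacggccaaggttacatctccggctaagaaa
The overlaps are 240, 249 and 484 bases long, of which 159, 183 and 312 are coding bases of the histone.

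AT1G04503 had 2681 and 1543 counts in *jmj26* and 1307 and 921 in Col-0, while the H1 row AT1G06760 beneath it had at most 5. AT3G07315 had 1176 and 728 counts in *jmj26* and 671 and 347 in Col-0, which is 23.1 and 28.0 times the counts of *HTB9* in *jmj26* and 19.7 and 23.1 times in Col-0. AT1G07983 had 299 and 284 counts in *jmj26* and 171 and 122 in Col-0, or 7.87 and 9.47 times *GAMMA-H2AX* in *jmj26* and 9.50 and 11.1 times in Col-0. The same order was common in the series. Of 1125 protein-coding and lncRNA pairs that share at least 200 bases on opposite strands and have at least 10 counts together, the lncRNA row was the higher one in 732 (65.1%) and at least 10 times higher in 377 (33.5%).

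None of the 3 lncRNA rows passed the test between genotypes. Their log2 fold changes were -0.13 ± 0.15 for AT1G04503, -0.10 ± 0.18 for AT3G07315 and -0.0079 ± 0.17 for AT1G07983 (SE; adjusted p = 0.815, 0.894 and 0.999, edgeR quasi-likelihood test). AT1G54680, which overlaps *GAMMA-H2AX* by 259 bases, had 298 and 249 counts in *jmj26* and 164 and 109 in Col-0, and AT3G20680, which overlaps *HTA13* by 79 bases, had 144 and 88 in *jmj26* and 43 and 48 in Col-0. *EXLA1*, an expansin-like gene that overlaps *HTB9* by 22 bases, had 18 and 18 in *jmj26* and 11 and 7 in Col-0, and AT1G52750, which overlaps *HTA9* by 21 bases, had 13 and 20 in *jmj26* and 8 and 4 in Col-0. AT5G02570, an H2B gene outside the 39 that lies within *HTA12* on the other strand, had at most 1 count in a library.

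With each histone row summed with its opposite-strand neighbours, the log2 ratio over all members was -0.050 and that of replication-linked to variant sums was 0.021. These sums hold mostly neighbour counts. In *jmj26* library 1, AT1G04503 alone adds 2681 counts to the 448 of all histone rows. Members whose 3′ end lies within 100 bases of a gene on the opposite strand, or overlaps it, were 10 of 39, of which 4 were tested, and their median total count over the 4 libraries was 21.5. The other 29, of which 3 were tested, had a median total of 4. This split was not made over all gene rows, so it is not a trait of histone genes. From which strand the counts of each row came was not tested.

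**Figure D5:**
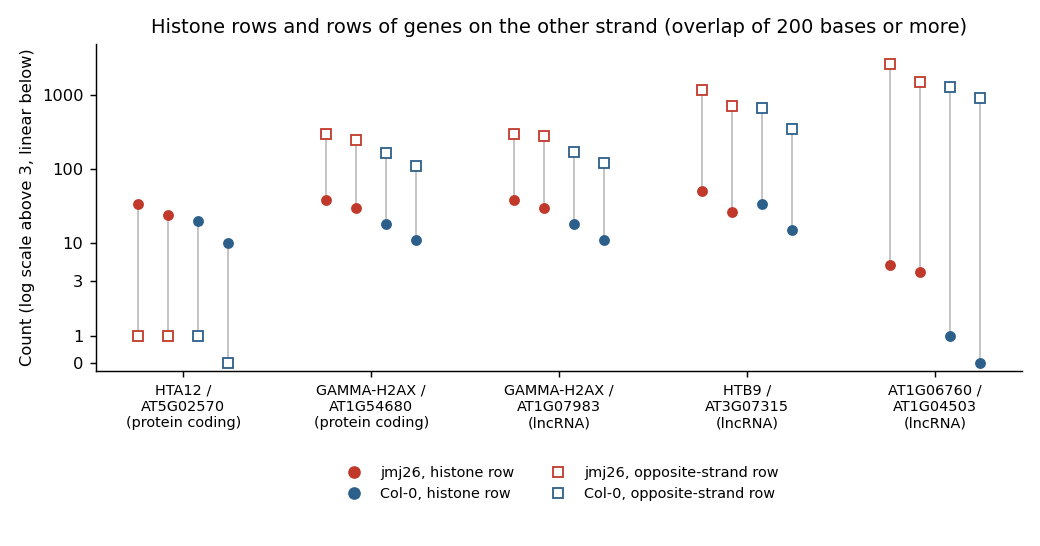
Counts (log axis above 3, linear below) of histone rows (filled circles) and of rows of genes that overlap them by 200 bases or more on the opposite strand (open squares), joined by a line for each library, *jmj26* left of Col-0. AT1G04503 reaches 2681 counts over an H1 row with at most 5, AT3G07315 is at 347 to 1176 over *HTB9* at 15 to 51, and AT5G02570 has at most 1 count over *HTA12*.

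Genes that handle histones were also sparse in Col-0. Of 18 histone chaperone and chromatin assembly genes 7 were tested, 0 passed an adjusted p of 0.05, and 4 had an unadjusted p under 0.05, all higher in *jmj26*, against 13.6% of all tested rows in that direction and 37.9% of those without an opposite-strand overlap. *NAP1;1*, *NAP1;2* and *NAP1;3*, which encode chaperones of H2A and H2B, had 44 and 28, 44 and 40, and 21 and 23 counts in *jmj26*, against 3 and 7, 2 and 7, and 1 and 4 in Col-0. *NRP1*, which encodes a related chaperone, had 24 and 15 counts in *jmj26* and 1 and 2 in Col-0. The *NAP1* rows have no opposite-strand overlap, and *NRP1* has one. These 4 rows were tested because of their *jmj26* counts. No Col-0 library reached the filter's level for *NRP1* and *NAP1;3*, and 1 of 2 did for *NAP1;1* and *NAP1;2*, so the filter favoured higher values in *jmj26* and the number called supports nothing about the list. All 4 had both *jmj26* libraries above both Col-0 libraries, but they were picked by a low p-value in that direction, so this adds nothing. The same held for 26.8% of all tested rows and 51.3% of those without an opposite-strand overlap. Their log2 fold changes in the order named were 1.78 ± 0.48, 2.17 ± 0.53, 2.08 ± 0.65 and 2.60 ± 0.60 (SE, adjusted p = 0.126, 0.112, 0.162 and 0.109, edgeR quasi-likelihood test).

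*MSI1*, which encodes a histone-binding subunit of the assembly factor CAF-1, had 65 and 31 counts in *jmj26* and 24 and 19 in Col-0 (log2 fold change 0.10 ± 0.31). *ARP6*, of the complex that installs H2A.Z, had 55 and 46 in *jmj26* and 30 and 39 in Col-0 (-0.51 ± 0.32), and *ATRX*, which places H3.3, had 17 and 13 in *jmj26* and 8 and 3 in Col-0 (0.43 ± 0.46, all SE). No Col-0 library reached the filter's level for *ATRX* either.

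Genes of DNA replication and cell division were sparse as well, and 3 of 15 were tested. *ICU2*, the catalytic subunit of DNA polymerase alpha, had 24 and 20 counts in *jmj26* and 15 and 13 in Col-0 (log2 fold change -0.37 ± 0.32), and *CYCB1;1*, a mitotic cyclin gene, had 22 and 13 in *jmj26* and 7 and 8 in Col-0 (0.18 ± 0.42). *SYP111* (KNOLLE), which acts in cytokinesis, had 45 and 33 in *jmj26* and 15 and 10 in Col-0 (0.62 ± 0.28, all SE). None had an unadjusted p under 0.05 in edgeR's quasi-likelihood test, and their median log2 fold change was 0.18. Among 10 histone genes outside the 39, 6 were at 0 in every library, and *HTA4* (AT4G13570) was tested, with 147 and 112 counts in *jmj26*, 82 and 49 in Col-0 and a log2 fold change of -0.024 ± 0.18 (SE).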

How the data were processed

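RNA-seq libraries of 2 *jmj26* and 2 Col-0 rosette samples were grouped by the sample labels. The authors selected poly(A) RNA, trimmed reads with fastp, aligned them with STAR 2.7 with several hits allowed, and deposited raw counts per gene and transposon row as TEcount wrote them, without normalization. Reads with several hits are divided among rows, so close copies share counts. The submitters' processing notes also name featureCounts 2.0.1. The deposited counts hold 36632 gene and 31189 transposon rows, with 740909 to 1998601 counts per library.

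The 39 members and the gene lists were chosen with earlier results of these data known. Tests used edgeR 4.0.16 (R 4.3.3) on gene rows that passed filterByExpr, with TMM, estimateDisp, glmQLFit (legacy = TRUE) and glmQLFTest, and p-values were adjusted by Benjamini-Hochberg over 5232 rows at a threshold of 0.05. Standard errors were derived from the F statistic and the log2 fold change. The biological coefficient of variation was 16.6%. Counts were also simulated for 5232 rows, at the mean level of each row and with the same dispersion in every row. There the test recovered 23 of 100 rows changed by a log2 fold change of 1 and 86 of 100 changed by 2, with 0 false calls. These rates are over all simulated rows and do not give the power for the histone rows. Sums per library were compared by exact permutation tests (scipy 1.17.1). Intervals of count ratios are exact binomial intervals at 95% and cover counting error only. Coordinates, overlaps and sequences are from TAIR10.1. Genes named are members with at least 10 counts in a library or tested, opposite-strand neighbours with at least 10 counts, and tested members of the lists. Other members, floral markers and *JMJ26* were named after their values were seen. Alternatives were other filters, DESeq2 1.42.0 and its size factors, upper quartile and total scaling, robust fitting, transposon rows included, rows without an opposite-strand overlap, histone rows summed with their neighbours, each library left out, and the replicate number as a block. A crossed block was added after seeing the data.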

Additional observations from a re-analysis of the deposited data

How the results depend on the processing

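No setting gave a histone gene an adjusted p under 0.05 (edgeR and DESeq2). The number with an unadjusted p under 0.05, 1 in edgeR, was 3 without the filter and 0 with a minimum of 10 counts per library, with the Wald test of DESeq2, transposon rows included, or rows without an overlap only, and it ranged from 0 to 2 with a library left out. The median log2 fold change of the tested genes, 0.36, was 0.88 without the filter, 0.26 with at least 10 counts and 0.16 with rows without an overlap only, and ranged from 0.045 to 0.40 with a library left out. With a library left out, the log2 fold change of *HTA13* (AT3G20670) ranged from -0.066 (without Col-0 replicate 1) to 0.60, that of *HTA12* (AT5G02560) from -0.35 to 0.10 (without Col-0 replicate 1) and that of *HTB2* (AT5G22880) from -0.17 (without *jmj26* replicate 1) to 0.63. The other filters changed which genes were tested, whereas the Wald test and the fit with transposon rows also tested 7. The cause was not tested.

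For the summed log2 ratios, scaling to rows without an overlap gave -0.23 for all histone genes, -0.16 for replication-linked and -0.53 for variant genes. Adding neighbour rows gave -0.050, 0.036 and 0.023, and 0.021 for the ratio of replication-linked to variant sums. Members without an overlap gave 0.82, 0.87 for replication-linked and 0.67 for the ratio. The 8 variant genes in that ratio held only 11 and 8 counts in *jmj26* and 4 and 4 in Col-0. Gene and transposon totals gave 0.44 for all. Without the member with the most counts, replication-linked gave 0.55, variant 0.033 and the ratio 0.52. With a library left out, the sums ranged from 0.37 to 0.44 for all, 0.42 to 0.54 for replication-linked and 0.055 to 0.18 for variant genes, and the ratio from 0.27 to 0.45. The cause was not tested.

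The labels number the replicates alike in both genotypes but do not say what the numbers share. Deviations of same-numbered libraries correlated at -0.16. With the number as a replicate block, 0 histone genes had an unadjusted p under 0.05 and 64 gene rows passed an adjusted p of 0.05, against 3 without it. A crossed replicate block, added after seeing the data, gave 0 and 152. Genes at or under the floor of 3 counts were too sparse to compare. The part of depth and of the counting strand in this was not tested.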
